A study of Bos taurus with 6 samples.

Results

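The genes described here are those of the class I phosphoinositide 3-kinases (PI3 kinases) and of one adaptor that recruits them, measured by mRNA-seq in intramuscular fat (IMF) of castrated and intact male cattle. The 10 members were chosen by gene symbol (PIK3CA, PIK3CB, PIK3CD, PIK3CG, PIK3R1, PIK3R2, PIK3R3, PIK3R5, PIK3R6 and PIK3AP1), and all 10 were found among the 25444 genes of the count table. Each had at least 20 counts over the 2 libraries. The samples came from Chinese Qinchuan male cattle weaned at 3 months and slaughtered at 24 months, with the IMF dissected out of the sternomandibularis muscle. Steers had been castrated surgically at 6 months and bulls were left intact, and both groups received the same diet. Each group gave 1 mRNA library, for which the series design and the paper state a pool of 6 animals and the sample labels 3 heads. The animals shared a sire. Small RNA libraries of the same series were not used here.

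Class I PI3 kinases sit at the inner face of the plasma membrane and phosphorylate the lipid phosphatidylinositol bisphosphate to the trisphosphate, which recruits AKT and other kinases. Each enzyme is a catalytic subunit bound to a regulatory subunit. In fat cells the pathway carries the insulin signal to glucose uptake and lipid synthesis. The alpha and beta catalytic subunits (PIK3CA, PIK3CB) and the regulatory subunits of class IA (PIK3R1, PIK3R2, PIK3R3) are made in most cell types and are called general here. The delta and gamma catalytic subunits (PIK3CD, PIK3CG), the class IB regulatory subunits (PIK3R5, PIK3R6) and the adaptor PIK3AP1, known from B cells and macrophages, are found mainly in leukocytes and are called leukocyte-type.

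All 5 leukocyte-type genes were lower in steers than in bulls, by 3.14-fold to 5.09-fold, and none of the 5 general genes passed the threshold. Normalised counts were obtained by dividing by size factors (median of ratios, 1.04 for steers and 0.959 for bulls), and the pair of counts of a gene was put to a two-sided exact binomial test. Benjamini-Hochberg adjustment covered all 17752 genes that were counted at all. Genes were called where the adjusted p was below 0.05 and the fold change above 2. By this rule 8.13% of all genes tested were called lower and 4.37% higher in steers, beside 5 of 10 and 0 of 10 members. Of the genes with at least 20 counts, the shares were 9.32% and 4.67%. The paper had already reported PIK3CD, PIK3CG and PIK3R5 as downregulated in steers from these same libraries. Members were chosen with earlier results known, so the 5 of 10 is a description and not independent support. The median log2 fold change was -2.10 for the leukocyte-type genes and 0.26 for the general genes, compared with 0.02 over the 13501 genes with at least 20 counts. Since each group was a single pool, no replicate check could be made. The test therefore compared 2 libraries and not the conditions, and the 95% intervals given below cover counting error only.

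The libraries held 12677375 counts in steers and 9868415 in bulls. Fat cell transcripts were abundant in both, with 34159 and 37953 counts over 9 adipocyte markers. Their median log2 fold change was -0.02, with 5 below 0 and 4 above. The values were spread widely, from -1.06 for FABP4, the 1 called lower, to 2.75 for CIDEA, the 1 called higher. Skeletal muscle markers were also present (29511 and 41974 counts over 9 genes, median -0.65, 1 called higher and 2 lower). The 2 called lower were MYH7 at -2.23 (675 and 2906 counts) and TNNT1 at -2.01 (485 and 1801 counts). MYH1 was called higher at 1.15. Falls of this size were thus also seen outside the leukocyte genes. Scaling by total counts lowered the log2 fold changes by 0.24, and the values below are relative to the median-of-ratios scaling.

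Among the leukocyte-type catalytic subunits, PIK3CD had 97 counts in steers and 454 in bulls, or 93.0 and 474 normalised counts. It fell by 2.35 on the log2 scale (95% interval -2.68 to -2.03), which makes it 5.09-fold lower in steers (exact binomial test, adjusted p = 2.25e-61). The delta subunit is the isoform through which antigen and cytokine receptors of lymphocytes signal. PIK3CG had 71 counts in steers and 311 in bulls, or 68.1 and 324 normalised counts. This gene of the gamma subunit, which responds to chemoattractant receptors coupled to G proteins, was 4.77-fold lower in steers (interval 3.67 to 6.26). The adjusted p of PIK3CG was 4.58e-40. Of all genes tested, 2.90% had a lower log2 fold change than PIK3CD and 3.17% a lower one than PIK3CG. The ratio of PIK3CD to PIK3CG counts was 1.37 in steers and 1.46 in bulls, a difference within counting error (log2 ratio of ratios -0.10, interval -0.60 to 0.42).

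**Figure D1:**
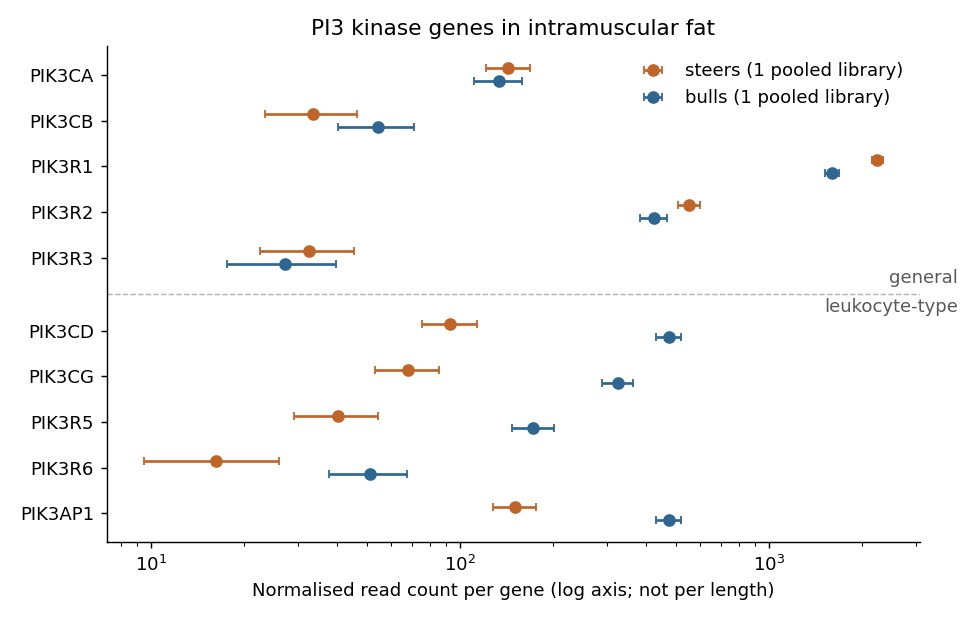
Normalised read count (log axis) of each PI3 kinase gene in the steer and bull libraries, with bars for the 95% Poisson interval of the count. In the 5 leukocyte-type genes the 2 intervals lie apart, with steers lower. They also lie apart in PIK3R1 and PIK3R2, with steers higher, while those of PIK3CA, PIK3CB and PIK3R3 overlap. Over all 17752 genes tested, 7800 had an unadjusted p below 0.05 in the exact binomial test. Of the 13501 with at least 20 counts, 7303 had. That measure is looser, since PIK3CB also passed it (exact binomial test, p = 0.035) with overlapping intervals. Intervals lying apart were not counted over all genes, so the members' count has no share to stand beside.

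The class IB regulatory subunits were lower in steers as well. PIK3R5, which encodes a partner of the gamma subunit, was covered by 42 counts in steers against 166 in bulls and was 4.30-fold lower (interval 3.05 to 6.19). PIK3R6, its neighbour on the chromosome in the RefSeq annotation, had 17 and 49 counts and was 3.14-fold lower (interval 1.78 to 5.81, adjusted p = 0.000116). PIK3R6 had the fewest counts of the leukocyte-type genes, and its interval reached below a 2-fold difference. The 2 regulatory genes together had 0.831 counts per PIK3CG count in steers and 0.691 in bulls, and the interval of this ratio of ratios on the log2 scale (-0.32 to 0.85) included 0. Thus the gamma catalytic gene and its regulatory partners were lower by amounts that could not be separated at this depth.

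PIK3AP1, whose product (also named BCAP) brings PI3 kinase to B cell and Toll-like receptors, had 157 counts in steers and 455 in bulls. It fell by 1.66 on the log2 scale (interval -1.93 to -1.39), or 3.15-fold. PIK3AP1 was less reduced than the catalytic genes of the group. Its ratio to PIK3CD was 1.61-fold higher in steers than in bulls (interval 1.20 to 2.17), and its ratio to PIK3CG 1.51-fold higher (interval 1.09 to 2.10).

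Among the general catalytic subunits, PIK3CA had 150 counts in steers and 128 in bulls, or 144 and 134 normalised counts. This gene, whose product is the main PI3 kinase of insulin signalling, had a log2 fold change of 0.11 (interval -0.24 to 0.46), and with total counts this value was -0.13. PIK3CB, which encodes the beta subunit, had 35 and 52 counts. Its log2 fold change was -0.69 (interval -1.35 to -0.05), the only one below 0 among the general genes at this scaling, and it was not called (exact binomial test, adjusted p = 0.083). The ratio of PIK3CA to PIK3CB was 1.74-fold higher in steers, with an interval of 1.04 to 2.94.

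The general regulatory subunits had values slightly higher in steers. PIK3R1, which encodes the alpha regulatory subunit and its shorter forms, was covered by 2343 and 1536 counts in steers and bulls, respectively. The log2 fold change of 0.49 (interval 0.39 to 0.58) was beyond counting error but under the 2-fold threshold, at 1.40-fold. For PIK3R2, the beta regulatory subunit, 575 and 407 counts gave a log2 fold change of 0.38 (interval 0.19 to 0.56, 1.30-fold). PIK3R3, the gamma form of the class IA regulatory subunits, was covered by only 34 and 26 counts. Its log2 fold change of 0.26 had an interval of -0.51 to 1.06, so a 2-fold rise could not be told from none at its depth. PIK3R1 and PIK3R2 kept a ratio of 4.07 in steers and 3.77 in bulls, and the interval of the log2 ratio of ratios was -0.10 to 0.32.

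**Figure D2:**
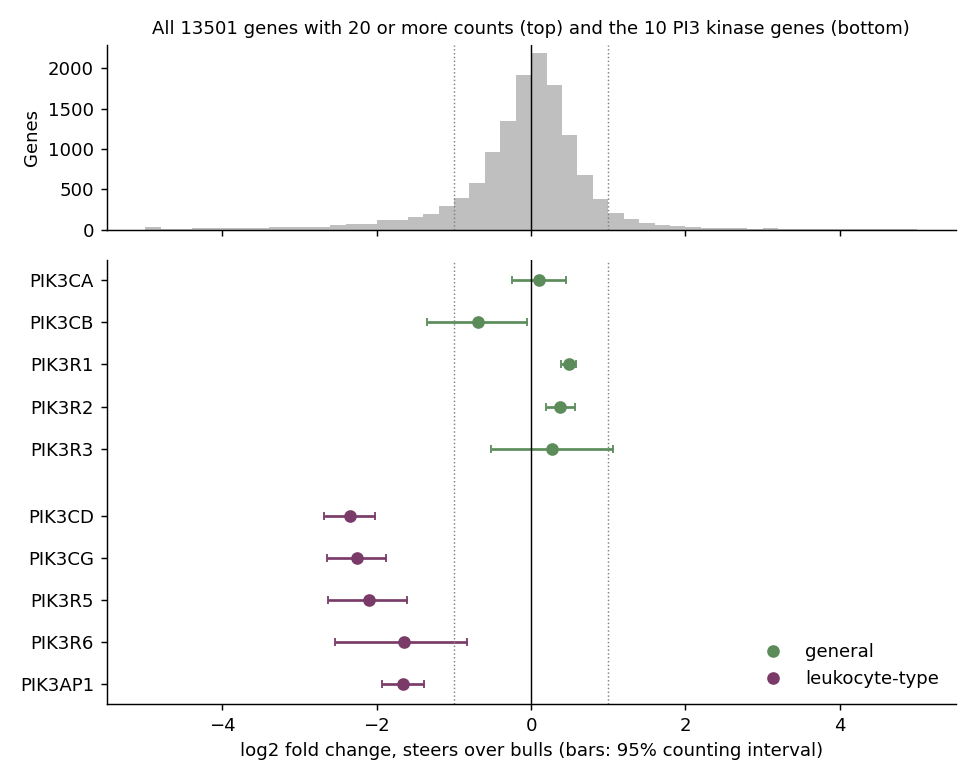
The upper panel is a histogram of the log2 fold change (steers over bulls) of the 13501 genes with at least 20 counts, with values beyond 5 drawn at 5, and the lower panel gives the 10 members with their 95% counting intervals. The leukocyte-type genes lie between -2.35 and -1.65, beyond the dotted line of a 2-fold difference, and the general genes between -0.69 and 0.49.

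The leukocyte-type genes were then compared with the general ones directly. Each pair was taken as a ratio of ratios, the counts of the leukocyte-type gene over those of the general gene in steers, divided by the same in bulls. This quantity does not depend on how the libraries are scaled. Of the 25 pairs, 24 had an interval entirely below 0 on the log2 scale, and 18 an interval entirely below -1. The pair values ran from -2.84 for PIK3CD over PIK3R1 to -0.96, with a median of -2.14. The exception was PIK3R6 over PIK3CB (17 and 49 against 35 and 52 counts) at -0.96 (interval -2.06 to 0.13). Each pair value is the difference of the 2 log2 fold changes given above, so the count of pairs restates those values and adds no separate support. The pairs share genes and are not independent of each other. Pairs of other genes were not counted.

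**Figure D3:**
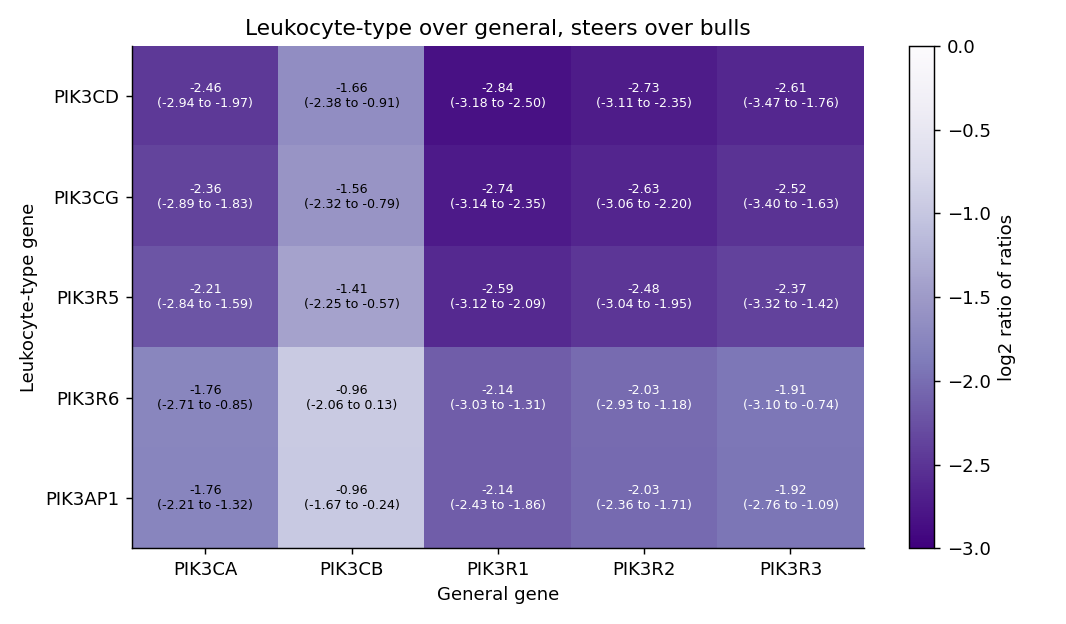
Log2 ratio of ratios (steers over bulls) for each of the 25 pairs of a leukocyte-type gene (vertical axis) and a general gene (horizontal axis), with the exact 95% interval in brackets and darker colour for lower values. The PIK3CB column is the palest, from -1.66 to -0.96, and the PIK3R1 column the darkest, from -2.84 to -2.14.

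For summed catalytic counts, PIK3CD and PIK3CG together had 168 counts in steers and 765 in bulls, whereas PIK3CA and PIK3CB together had 185 and 180. The leukocyte-type over general ratio was 0.908 in steers and 4.25 in bulls, which is 4.68-fold lower in steers (interval 3.56 to 6.15). Without PIK3CA, where PIK3CB alone stands for the general genes, the log2 ratio of ratios was -1.62 in place of -2.23. The regulatory genes gave a similar difference. PIK3R5 and PIK3R6 had 59 counts in steers and 215 in bulls against 2952 and 1969 for PIK3R1, PIK3R2 and PIK3R3, a ratio 5.46-fold lower in steers (interval 4.05 to 7.46).

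Expressed as shares of the class I catalytic counts, PIK3CD and PIK3CG took 47.6% in steers (95% Clopper-Pearson interval 42.3 to 52.9) and 81.0% in bulls (78.3 to 83.4). The share of PIK3CD was 27.5% in steers and 48.0% in bulls, and that of PIK3CG 20.1% and 32.9%. PIK3CA made up 42.5% of the catalytic counts in steers (37.3 to 47.8) and 13.5% in bulls (11.4 to 15.9). Of the regulatory counts, PIK3R5 and PIK3R6 took 1.96% in steers (1.49 to 2.52) and 9.84% in bulls (8.63 to 11.2). These are shares of reads without correction for transcript length. They compare the same genes between libraries and do not rank genes within a library.

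**Figure D4:**
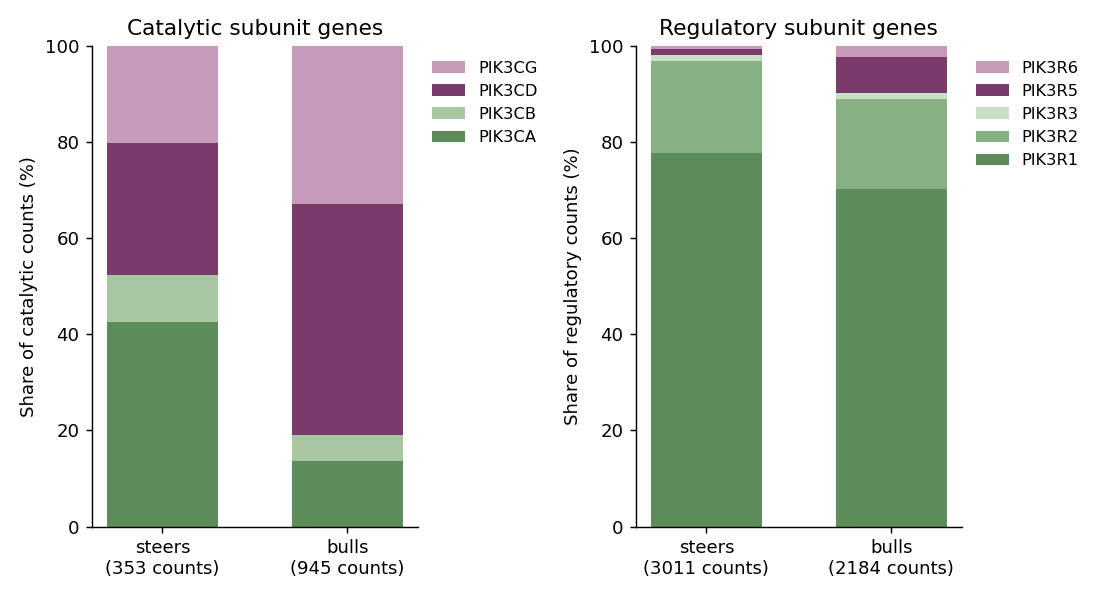
Share (%) of the reads of the 4 catalytic genes (left) and of the 5 regulatory genes (right) that fell on each gene in the steer and bull libraries, with general genes in green and leukocyte-type genes in purple. The purple part of the catalytic bar is 47.6% in steers and 81.0% in bulls.

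The balance of regulatory to catalytic genes in class IA also differed between the libraries. PIK3R1, PIK3R2 and PIK3R3 had 10.5 counts per count of PIK3CA, PIK3CB and PIK3CD in steers and 3.11 in bulls, a ratio 3.37-fold higher in steers (interval 2.89 to 3.94). PIK3CD, itself 5.09-fold lower in steers, is part of this denominator, so this ratio takes in the fall of PIK3CD and is not a separate result. For single general genes, PIK3R1 over PIK3CA was 1.30-fold higher in steers (interval 1.01 to 1.67) and PIK3R1 over PIK3CB 2.27-fold higher (interval 1.44 to 3.60).

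Markers of leukocytes were lower in steers together with the leukocyte-type genes, and their part in the result was not tested. All 9 pan-leukocyte markers were called lower, with 3809 counts in steers and 12992 in bulls, or 3651 and 13554 after scaling, and a median log2 fold change of -2.24. PTPRC, which encodes CD45 and marks nearly all nucleated blood cells, had 107 and 780 counts and fell by 2.99 on the log2 scale (interval -3.29 to -2.70). Of 9 T cell markers 8 were called lower (176 and 959 counts), with CD3G at 0 counts in steers and 34 in bulls. Of 5 B cell markers 2 were called lower (48 and 202 counts), while MS4A1 and CD79B had no count in either library. Macrophage markers were called lower in 9 of 11 cases, with 21448 and 48475 counts and a median of -1.70. Those not called were CSF1R at -0.92 (7057 and 12309 counts) and CD163 at -0.64 (5611 and 8052 counts). In bulk tissue, fewer leukocytes and less RNA per leukocyte cannot be told apart. The 8 endothelial markers had a median of -0.24 and no call. Of 5 fibroblast markers 2 were called higher and 0 lower, with a median of 0.95 and 1141859 counts in steers against 533580 in bulls. The called genes were COL3A1 at 1.27 and COL1A1 at 1.00, at the 2-fold threshold, both named after their values were seen, and the part of these markers in the result was not tested.

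Relative to PTPRC, the leukocyte-type genes were higher in steers. The ratio to PTPRC was 1.56-fold higher for PIK3CD (interval 1.14 to 2.12), 1.66-fold for PIK3CG (1.18 to 2.34), 1.84-fold for PIK3R5 (1.21 to 2.77), 2.53-fold for PIK3R6 (1.31 to 4.66) and 2.52-fold for PIK3AP1 (1.90 to 3.33). All 5 were higher against CD48 as well, but against the other markers the result depended on the reference. Against LCP1, an actin-bundling protein of leukocytes, the sum of the 5 genes differed by a log2 ratio of ratios of 0.15 (interval -0.08 to 0.38). Against CD53 it was 0.21 (interval -0.14 to 0.58) and against CD37 0.20 (interval -0.10 to 0.51). Against CORO1A the sum was at 0.54 (interval 0.26 to 0.84) and against ITGB2 at 0.29 (interval 0.04 to 0.54). ARHGDIB and LAPTM5, whose log2 fold changes were -1.32 and -1.63, gave -0.70 (interval -0.91 to -0.50) and -0.39 (interval -0.58 to -0.21). Of the 9 reference markers, 4 thus gave an interval of the sum above 0, 2 below 0 and 3 one that included 0. Against LCP1, CORO1A, CD53, CD37 and ITGB2, PIK3AP1 was the 1 gene of the 5 whose own interval lay above 0. Against LAPTM5, in contrast, PIK3AP1 was at -0.03 (interval -0.31 to 0.25) and against ARHGDIB at -0.34 (interval -0.63 to -0.05). The log2 fold changes of the 5 leukocyte-type PI3 kinase genes lay within the range of the pan-leukocyte markers, from -3.77 for CD48 to -1.32 for ARHGDIB. That range is wide and the markers were chosen with earlier results of these data known, so this placing is a description and not a test.

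The remaining genes of the pathway were taken from lists. The shares to set beside their counts of calls are those over all genes tested, 8.13% lower and 4.37% higher in steers. Among the other PI3 kinases and their partners, 0 of 6 were called. PIK3IP1, an inhibitor of the class I catalytic subunits, was at -0.84 on the log2 scale with 611 and 1005 counts (interval -0.99 to -0.69), and PIK3C2B, a class II enzyme, at -0.60. The class III enzyme PIK3C3 (145 counts in each library) was at -0.12 and its partner PIK3R4 (1247 and 1178 counts) at -0.04. PIK3C2G had 1 count in steers and 0 in bulls.

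Among 7 phosphatases that act on the products of PI3 kinase, 1 was called, a count not set apart from the shares over all genes. INPP5D, which encodes SHIP1, the inositol phosphatase of blood cells, fell by 1.30 on the log2 scale, with 234 counts in steers against 530 in bulls (interval -1.53 to -1.08). INPP4A was at 0.12 and INPP4B, with 20 and 35 counts, at -0.93.

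Downstream, 0 of 22 genes of the AKT and MTOR axis were called in either direction, and their median log2 fold change was 0.07. AKT2, the main AKT of fat cells, was at 0.03 (interval -0.08 to 0.14) with 1440 and 1296 counts. MLST8, a subunit shared by both MTOR complexes, was highest at 0.63, followed by FOXO1, a transcription factor that AKT inhibits, at 0.62 (2230 and 1337 counts). TBC1D4, the AKT substrate that controls glucose transporter movement, was lowest at -0.40, followed by FOXO4 at -0.27. These 4 were uncalled because they were under the 2-fold threshold, not because they were unchanged. Their counting intervals excluded 0: 0.40 to 0.85 for MLST8, 0.52 to 0.71 for FOXO1, -0.56 to -0.25 for TBC1D4 and -0.47 to -0.07 for FOXO4. AKT1 was not analysed here.

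Upstream, 0 of 10 growth factor receptors, adaptors and RAS genes were called, with a median of -0.15. The insulin receptor gene INSR had 448 and 421 counts (log2 fold change -0.03). Its substrate gene IRS1 had 351 and 387 counts and IRS2 had 41 and 45, and both were at -0.26. PDGFRA and GAB1 were lowest at -0.48 (interval -0.57 to -0.40) and -0.45 (interval -0.66 to -0.25), beyond counting error but under the threshold. ERBB3 and IGF1R were highest at 0.11 and 0.08, with intervals that included 0. On the leukocyte side of the pathway, of 18 receptors, kinases and adaptors that feed PI3 kinase or respond to it in leukocytes, 13 were called lower and 0 higher, with a median log2 fold change of -1.94. TEC, a kinase recruited to the membrane by the PI3 kinase product, was at -3.29 (interval -5.66 to -1.59) with 3 and 27 counts. PREX1 at -0.91 and PLCG2 at -0.96 were the highest of those with 20 or more counts and were not called.

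**Figure D5:**
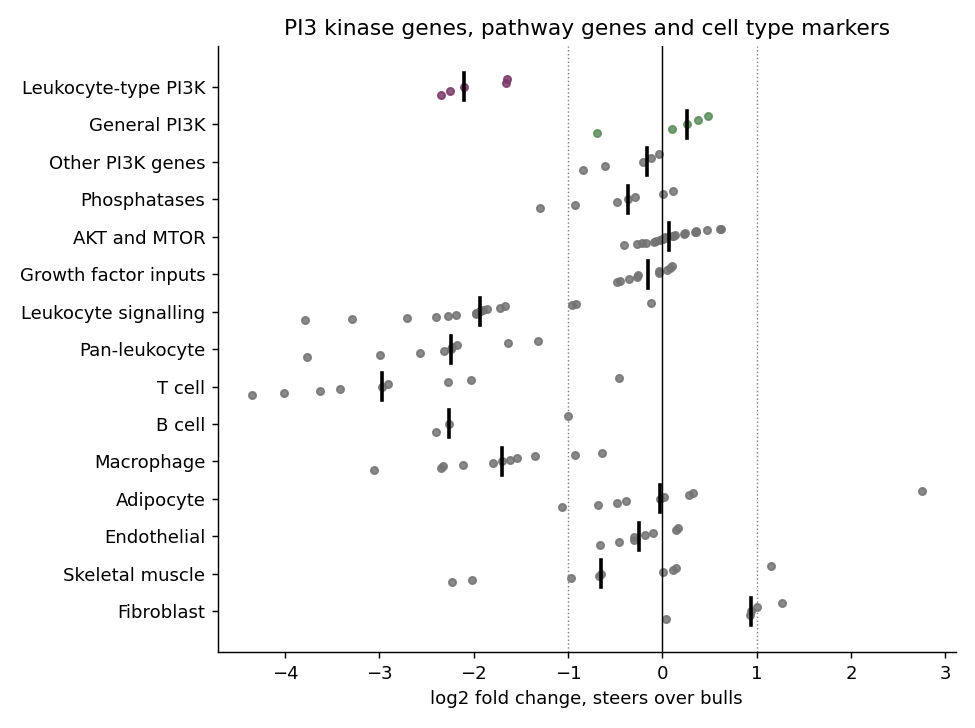
Log2 fold change (steers over bulls) of each gene in the lists named in the text, as points, with a black bar at the median of the list and dotted lines at a 2-fold difference. Genes with up to 3 counts over both libraries are not drawn. The leukocyte-type PI3 kinase genes (median -2.10) lie beside the pan-leukocyte markers (-2.24) and leukocyte signalling genes (-1.94). The general ones (0.26) lie with several lists near 0. Among these are the AKT and MTOR genes (0.07), growth factor inputs (-0.15), adipocyte markers (-0.02) and endothelial markers (-0.24). Skeletal muscle markers (-0.65) have a median further below 0 and fibroblast markers (0.95) one above it.

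The calls of the leukocyte-type genes rest on the spread assumed between pools, since none could be measured. In edgeR's exact test with an assumed biological coefficient of variation of 0.2, PIK3CD, PIK3CG, PIK3R5 and PIK3AP1 were still called and PIK3R6 was not (adjusted p = 0.068). With 0.4, 0 of the 5 were called, at adjusted p from 0.32 to 1 in edgeR, when 93 genes in all were called lower. The difference in PIK3R1, beyond counting error above, had an adjusted p of 0.098 in edgeR with a coefficient of 0.1.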

How the data were processed

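The authors removed adaptors and low-quality reads from Ion Proton data and used MapSplice for alignment to the bovine genome. Which program counted the reads, and whether by strand, is not given in the sources used here, and the submitters' processing notes list the human build GRCh37.p13 as the only build. The deposited table holds raw, unnormalized read counts by gene, in 1 pooled library per group. Libraries were grouped by title (CM, steers; IM, bulls).

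Size factors, exact binomial p-values (the smaller tail doubled), Clopper-Pearson and Poisson intervals and exact conditional intervals of count ratios were computed with numpy 2.4.6 and scipy 1.17.1. A count of 0 was set to a floor of 3 counts for the fold change, and a gene with 0 in one library and at most 3 in the other was given a log2 fold change of 0. The tests were run on simulated counts drawn with counting error only. Such data hold no spread between animals or pools, so they cannot check the calls against it. Alternatives used edgeR 4.0.16 (TMM and upper-quartile factors, exact test with an assumed biological coefficient of variation). edgeR's quasi-likelihood test and DESeq2 need replicates and were not used.

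Members and lists were chosen with earlier results of these data known. All members were named. From each pathway list, the 2 highest and the 2 lowest genes with at least 20 counts were named, with PTPRC, INPP5D, AKT2, INSR, IRS1 and IRS2. Some genes that this rule names are not reported here. Endothelial, fibroblast, muscle and adipocyte markers served as comparison. AKT1, HRAS, GAB3 and ITGAM were not analysed here. IRS2, PLCG2 and DOCK2 were matched by RefSeq gene identifier, and all 10 members matched a RefSeq symbol. KCNMB3, whose span overlaps PIK3CA there, had 5 and 6 counts. The table gives no transcript lengths, so levels of different genes were not compared.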

Additional observations from a re-analysis of the deposited data

How the results depend on the processing

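With no replicates, leaving out a library was not possible. No paired analysis was possible because each group has 1 mRNA library. Among the 10 alternatives, only the scalings could move a log2 fold change, and under each the leukocyte-type genes stayed below 0. The 5 calls held under every scaling and with 20 or more counts per gene. They also held with an assumed biological coefficient of variation of 0.1 and with p summed over outcomes (chosen after seeing the data). A 4-fold threshold left 3 of them (without PIK3R6 and PIK3AP1) and a coefficient of 0.4 left 0. PIK3CA turned from 0.11 to -0.13 with total counts. Without a fold threshold, 2 general genes (PIK3R1 and PIK3R2) were called higher.

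Over all genes, 776 were called higher and 1444 lower. The counts were 368 and 762 with a coefficient of 0.2, 52 and 93 with 0.4, 3535 and 3254 with no fold threshold, and 273 and 609 at 4-fold. The share of calls that were higher was 35.0%, and 21.2% with total counts. The log2 ratio of ratios of the summed catalytic genes was -1.62 without PIK3CA, in place of -2.23. Against other reference markers in place of PTPRC (0.96), the log2 ratio of the summed leukocyte-type genes was 0.15 for LCP1, 0.54 for CORO1A, 0.21 for CD53, 0.20 for CD37, 1.75 for CD48 and 0.29 for ITGB2, and turned to -0.39 for LAPTM5 and -0.70 for ARHGDIB. The cause was not tested. Counts per coding length could not be computed. Depth limits PIK3R6, PIK3R3 and PIK3CB most.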
